A study of Rhinolophus ferrumequinum with 8 samples.

Results

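The interferon regulatory factors (IRFs) and the signal transducers and activators of transcription (STATs) are transcription factors through which cells answer interferons and other cytokines. Of these factors, 9 genes were followed here in the spleen of the greater horseshoe bat, Rhinolophus ferrumequinum: IRF1, IRF2, IRF3, IRF5, IRF7, IRF9, STAT2, STAT3 and STAT4. They were taken by gene name from the deposited expression table, and all 9 were found among its 19652 genes. RNA of whole spleens from wild female bats was sequenced in 8 libraries, 2 biological replicates for each of 4 states. The summer active bats date from July and the other 3 groups from November: bats in torpor, in which body temperature and metabolism are lowered during hibernation, bats in arousal at 2 h after capture, and winter active bats at 26 h after capture. Every comparison with summer active also sets November against July, so state and month cannot be told apart in it. The labels give no age, genotype or treatment for any group. A library is called by its state and its replicate, for example arousal 1.

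In outline, STAT signalling begins when a cytokine receptor at the cell surface activates Janus kinases (JAKs), which phosphorylate STAT proteins so that they enter the nucleus. Type I interferons act through a complex that contains STAT2 and IRF9 and switches on antiviral genes, whereas STAT3 serves the interleukin-6 family of cytokines and STAT4 serves interleukin-12. IRF3, IRF5 and IRF7 act earlier, downstream of sensors of foreign nucleic acid, and drive the genes of interferons and inflammatory cytokines. IRF1 activates, and IRF2 can repress, an overlapping set of interferon-responsive genes. Most of these factors are controlled by phosphorylation, which transcript levels do not show. These roles are known from human and mouse cells.

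Values are a rescaled TPM (a measure of transcript abundance scaled for transcript length), written below as TPM. The table holds no read counts, so the depth behind a value is unknown. The test took in 13542 genes whose 8-library mean reached 1, each of the 9 among them, and was run with limma on log2(TPM + 1), and a gene is said to have risen or fallen where its Benjamini-Hochberg adjusted p over all these genes was under 0.05. Differences are on that log2 scale, first-named state minus second, and the scale understates the change of low genes. Where libraries of different states are said not to overlap, this is a description. The share of all genes that separate in such a way was not counted. The replicates of summer active were the least alike (r = 0.915 over the tested genes, against 0.937 to 0.959 in the other states). Column totals were lower in the arousal libraries, at 745098 and 780490, than in the summer active libraries, at 1276850 and 1331820. Of 7 listed markers of spleen stroma and red pulp, such as the spleen-specifying gene TLX1, none was at 0 in any library. Their summed level was 1136 TPM in summer active 2, against 3101 TPM in summer active 1 and 3132 to 5788 TPM in the November libraries.

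The 9 genes differed widely in level. Averaged over the 8 libraries, IRF3 was the highest at 112 TPM, followed by IRF2 (93.7), IRF5 (89.0), IRF1 (82.7), STAT3 (74.7), IRF7 (64.0), IRF9 (48.4), STAT2 (46.0) and STAT4 (5.03). STAT4 stood far below the others, in the lower part of the tested genes, whereas the rest lay among the higher expressed genes. IRF7 had the widest span, its highest library at 4.03 times its lowest, and IRF3 the narrowest, at 1.69 times.

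**Figure D1:**
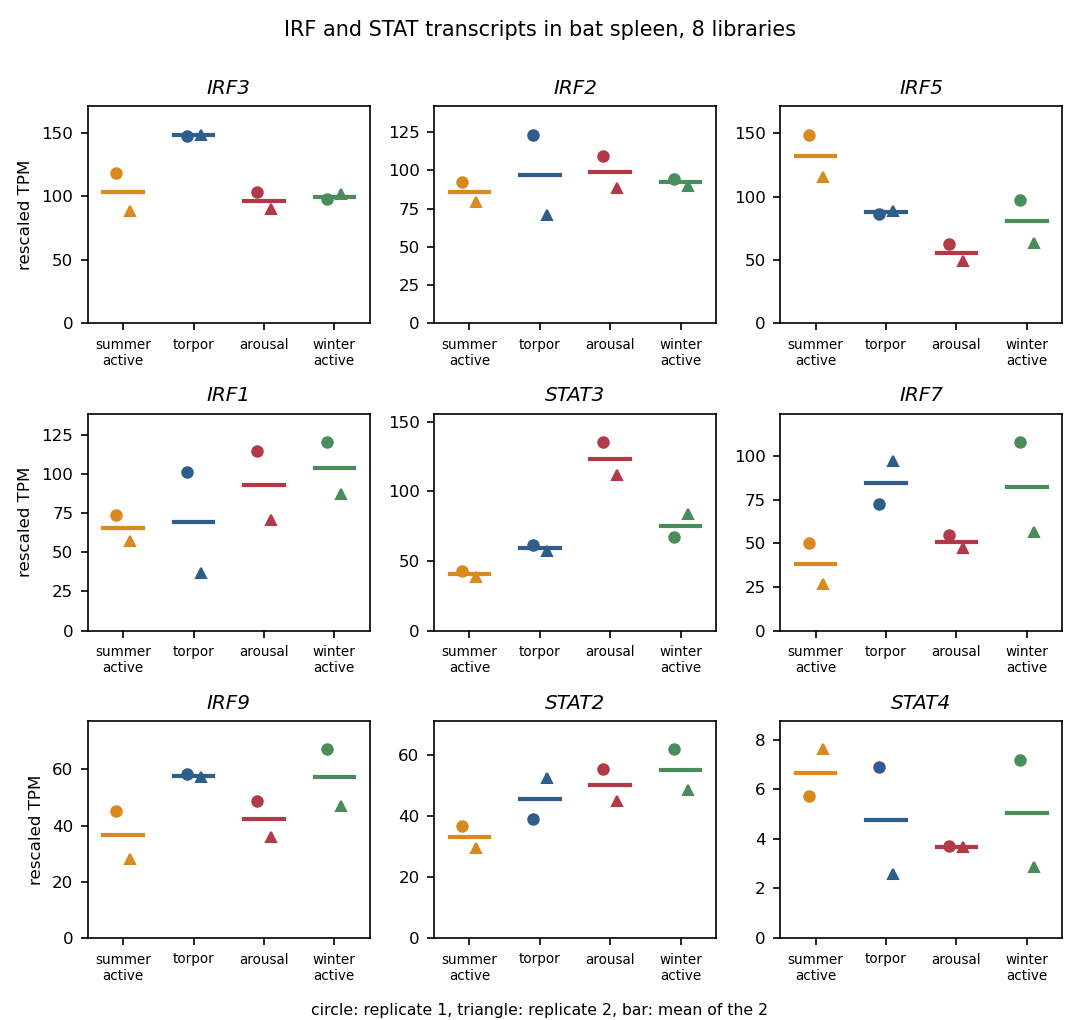
TPM (vertical axis, linear, from 0) of the 9 genes in the 8 libraries, grouped by state on the horizontal axis; circles are replicate 1, triangles replicate 2 and bars the mean of both. STAT3 is highest in both arousal libraries (135 and 112), IRF5 is lowest there (62.3 and 49.0), and IRF3 is highest in both torpor libraries (148 and 149).

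STAT3, which carries signals of interleukin-6, interleukin-10 and related cytokines, was the gene of the 9 that separated the states most clearly. Its values were 42.9 and 38.8 TPM in summer active, 61.3 and 57.0 in torpor, 135 and 112 in arousal, and 66.9 and 83.6 in winter active. The states stood in the order arousal, winter active, torpor and summer active, and no library of one state overlapped with those of the next. Means were 124 ± 16.8 TPM in arousal and 40.8 ± 2.89 TPM in summer active (SD, n = 2 libraries each), a ratio of 3.02. STAT3 rose in arousal against summer active by 1.57 (SE 0.20, 95% interval 1.11 to 2.03, adjusted p = 0.0132). It also rose in the combined November states, by 0.98 against summer active (SE 0.16, 95% interval 0.61 to 1.36, adjusted p = 0.0277), a ratio of means of 2.11.

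The steps between neighbouring states did not pass on their own. STAT3 differed by 1.04 between arousal and torpor (adjusted p = 0.142), by -0.71 between winter active and arousal (adjusted p = 0.825), by 0.33 between winter active and torpor (adjusted p = 0.483) and by 0.52 between torpor and summer active (adjusted p = 0.263). Winter active against summer active gave 0.86 (adjusted p = 0.126). In the test of any difference among the 4 states STAT3 had an adjusted p of 0.0538. None of the 9 genes passed that test, against 0.783% of all genes. STAT3 was therefore separated from summer active in arousal, while the interval for torpor against summer active (0.062 to 0.99) and that for winter active against summer active (0.40 to 1.32) lay above 0 without passing the adjusted threshold.

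Over the 8 fits that each left out 1 library, the STAT3 difference in arousal against summer active ranged between 1.43 and 1.71. Fits without a torpor or winter active library leave this difference unchanged. The other fits move it only within the spread of the replicates, so the range is no measure of how firm it is. The call was lost without summer active 2 (adjusted p = 0.0864), arousal 1 (0.0794) or arousal 2 (0.0578), and when only the libraries of these 2 states were fitted (0.1004). For the November states together, the difference stayed between 0.91 and 1.05, but the call was kept in 1 of the 8 fits, the one without arousal 2 (adjusted p = 0.0428). The adjusted p was 0.0505 without summer active 1, 0.210 without summer active 2, 0.0679 without torpor 1, 0.0743 without torpor 2, 0.0574 without arousal 1, 0.0529 without winter active 1 and 0.0831 without winter active 2.

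IRF5, which in macrophages, dendritic cells and B cells drives inflammatory cytokine genes downstream of Toll-like receptors, ran the other way. IRF5 stood at 149 and 115 TPM in summer active, 86.6 and 88.8 in torpor, 62.3 and 49.0 in arousal, and 97.6 and 63.7 in winter active. Both summer active libraries lay above all 6 November libraries, and both arousal libraries lay below all others. With means of 55.7 ± 9.45 TPM in arousal and 132 ± 23.9 TPM in summer active (SD, n = 2 libraries each), IRF5 fell in arousal by 1.23 (SE 0.26, adjusted p = 0.0442), to 0.422 of the summer active level. The other differences did not pass, with -0.84 for the November states against summer active (adjusted p = 0.0816), -0.72 for winter active against summer active (0.276), -0.57 for torpor against summer active (0.338) and -0.66 for arousal against torpor (0.229).

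With each of the 8 libraries left out in turn, the IRF5 difference in arousal against summer active lay between -1.41 and -1.05. Its sign could not turn in these fits, since the libraries of the 2 states did not overlap. The IRF5 call in arousal was lost whichever of the 8 libraries was left out. Its adjusted p was 0.0971 without summer active 1, 0.122 without summer active 2, 0.0719 without torpor 1, 0.0720 without torpor 2, 0.117 without arousal 1, 0.123 without arousal 2, 0.0592 without winter active 1 and 0.0588 without winter active 2. Setting every column to a total of 1000000 raised the median of all genes in arousal against summer active to 0.76, compared with 0.083 as deposited, and gave IRF5 a difference of -0.47 (adjusted p = 0.161). Relative to the median of all genes, IRF5 lay at -1.31 as deposited and at -1.23 after that rescaling, and STAT3 at 1.49 and 1.57. The rescaling shifts all genes of a library by nearly the same amount on the log2 scale. These relative values could therefore hardly move, and their likeness is no test of the calls. Under quantile normalization IRF5 differed by -1.15 (adjusted p = 0.0518) and STAT3 by 1.69 (adjusted p = 0.0151).

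As a ratio within each library, which no scaling between libraries touches, STAT3 over IRF5 was 2.17 and 2.28 in arousal, against 0.288 and 0.337 in summer active. The ratio was 0.708 and 0.641 in torpor, and 0.686 and 1.31 in winter active. The ratios of arousal lay above those of every other state and the ratios of summer active below them, but this pair of genes was chosen after its values were seen.

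IRF3 and IRF7 are the factors that switch on interferon genes once a sensor has met viral nucleic acid. IRF3, present in most cells before any signal, was at 118 and 88.2 TPM in summer active, 148 and 149 in torpor, 104 and 89.7 in arousal, and 98.04 and 102 in winter active. Both torpor libraries were above the other 6, and the other 3 states overlapped. Torpor differed from summer active by 0.53 (adjusted p = 0.260), arousal from torpor by -0.62 (adjusted p = 0.186) and winter active from torpor by -0.57 (adjusted p = 0.329), so none of these passed. Arousal against summer active gave -0.082 (adjusted p = 0.808), a difference whose sign turned to 0.68 with columns set to 1000000 (adjusted p = 0.0412) and to 0.043 under quantile normalization.

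IRF7, itself induced by interferon and dominant in plasmacytoid dendritic cells, was at 49.9 and 26.8 TPM in summer active, 72.2 and 97.1 in torpor, 54.8 and 47.0 in arousal, and 108 and 56.5 in winter active. Torpor and winter active lay above summer active with no overlap, but the winter active replicates differed in TPM by more than the means of winter active and summer active did. IRF7 differed by 1.17 in torpor against summer active (SE 0.39, adjusted p = 0.217), by 1.07 in winter active against summer active (adjusted p = 0.281) and by 0.90 in the November states together (adjusted p = 0.154). Arousal against summer active gave 0.46 (adjusted p = 0.459). Summer active 2 held the lowest IRF7 value of all. Over the fits that left out 1 library, the IRF7 difference from summer active ranged between 0.74 and 1.61 in torpor, 0.61 and 1.54 in winter active, 0.025 and 0.90 in arousal, and 0.47 and 1.34 in the November states together. Without summer active 2 these differences were 0.74, 0.64, 0.025 and 0.47.

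IRF9 and STAT2 act together in the complex that answers type I interferon. IRF9 was at 45.2 and 27.95 TPM in summer active, 58.4 and 57.2 in torpor, 48.7 and 35.8 in arousal, and 67.1 and 47.1 in winter active. STAT2 was at 36.7 and 29.4 TPM in summer active, 38.8 and 52.4 in torpor, 55.5 and 45.0 in arousal, and 61.7 and 48.4 in winter active. For STAT2 all 6 November libraries lay above both summer active libraries, whereas for IRF9 arousal overlapped with summer active. The November states together differed from summer active by 0.59 for STAT2 (SE 0.20, adjusted p = 0.144) and by 0.52 for IRF9 (SE 0.24, adjusted p = 0.245). STAT2 also differed by 0.72 in winter active (adjusted p = 0.255) and by 0.59 in arousal (adjusted p = 0.161) against summer active, without passing. IRF9 differed by 0.23 in arousal against summer active, a sign that turned to -0.11 without summer active 2. Its November difference was 0.18 without summer active 2 and 0.86 without summer active 1.

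IRF1, an activator induced by interferon gamma, differed widely between the libraries of a state. IRF1 was at 73.4 and 57.4 TPM in summer active, 101 and 36.9 in torpor, 115 and 70.4 in arousal, and 120 and 87.2 in winter active. The torpor pair alone spanned most of the range, and the widest difference between states, 0.73 in winter active against torpor, had a 95% interval of -0.37 to 1.84 (adjusted p = 0.514) and lay between 0.016 and 1.45 over the fits that left out 1 library. Arousal against summer active gave 0.46 (adjusted p = 0.543), with overlapping libraries. IRF2, its counterpart, was at 92.6 and 79.6 TPM in summer active, 123 and 70.7 in torpor, 110 and 88.8 in arousal, and 94.7 and 90.0 in winter active. All 4 states of IRF2 overlapped with their neighbours, and the interval for the November states against summer active was -0.39 to 0.67 around 0.14 (adjusted p = 0.744).

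STAT4, which passes interleukin-12 signals in T cells and natural killer (NK) cells, was low throughout. STAT4 was at 5.71 and 7.60 TPM in summer active, 6.90 and 2.59 in torpor, 3.70 and 3.67 in arousal, and 7.17 and 2.88 in winter active. Arousal lay below summer active with no overlap, at a difference of -0.70 (95% interval -1.81 to 0.41, adjusted p = 0.358). The summed level of 9 NK and cytotoxic cell markers was 110 and 81.4 TPM in arousal, against 349 and 196 TPM in summer active. That of 8 T cell markers was 124 and 89.1 TPM in arousal, against 187 and 242 TPM in summer active. The part of these cells in the STAT4 values was not tested. In whole tissue, fewer cells of a type and less RNA per cell cannot be told apart.

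**Figure D2:**
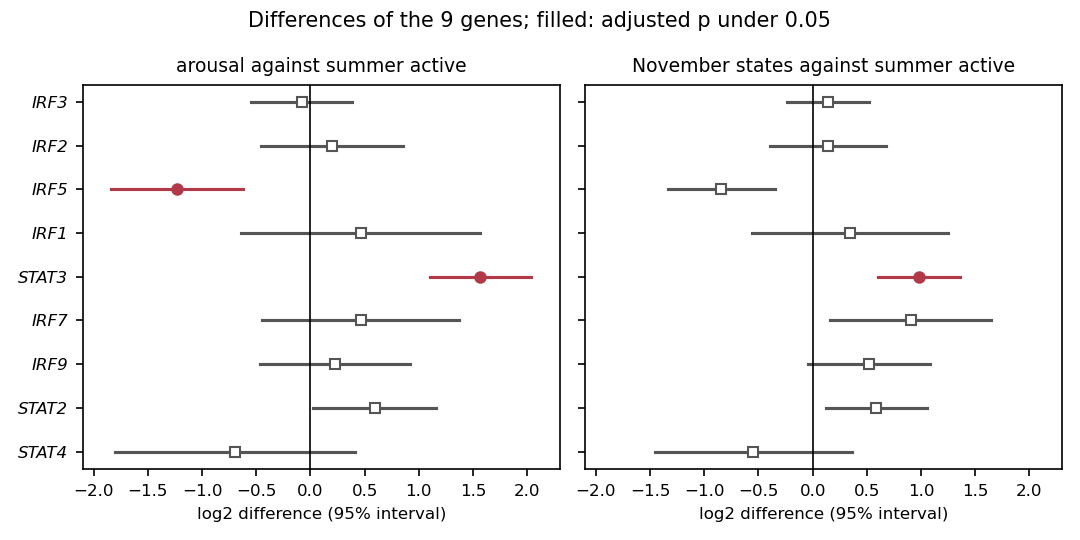
Difference of each of the 9 genes on the log2(TPM + 1) scale (horizontal axis) with its 95% interval, for arousal against summer active (left) and the November states against summer active (right). Filled red circles mark an adjusted p under 0.05: STAT3 on both sides (1.57 and 0.98) and IRF5 on the left (-1.23).

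Counted over the comparisons, 2 of the 9 genes passed in arousal against summer active, STAT3 upward and IRF5 downward. In that comparison 5.52% of all genes passed, 2.39% upward and 3.14% downward. In the November states against summer active 1 of 9 passed, STAT3 upward, beside 2.92% of all genes, of which 0.657% were upward and 2.26% downward. None of the 9 passed in torpor against summer active, where 0.561% of all genes did (0.0738% upward and 0.487% downward), nor in winter active against summer active, where 1.03% did (0.14% upward and 0.894% downward). Between torpor, arousal and winter active 0% of all genes passed with limma. At an unadjusted p under 0.05 there were 2666 genes in arousal against torpor (3 of the 9 among them), 1787 in winter active against torpor (1 of the 9) and 738 in winter active against arousal (1 of the 9). The split of calls depends on the scale, since after setting columns to 1000000 95.6% of the genes called in arousal against summer active were upward, compared with 43.2% as deposited. On that scale 6 of the 9 passed in arousal against summer active, all upward: STAT3, STAT2, IRF7, IRF2, IRF9 and IRF3. Beside them, 5833 of the 13542 tested genes were called upward and 266 downward. The median of all genes was 0.76 there, compared with 0.083 as deposited, so the count of 6 mixes that shift with changes of single genes.

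The 9 lists of genes around these factors held 145 other genes, of which 134 were tested. In arousal against summer active 7 of the 134 rose and 2 fell, or 6.72% beside 5.52% of all genes. In the November states against summer active 4 rose and 1 fell, or 3.73% beside 2.92%. Both shares lay near those of all genes. None of the 20 calls given here for the 9 genes and the listed genes was kept without summer active 2. None of these 20 differences turned its sign under any alternative. In each of the 20 the libraries compared did not overlap, so leaving out 1 library could not have turned a sign. Dropping the filter on low values, adding a replicate block or fitting only the libraries compared leaves each difference unchanged.

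**Figure D3:**
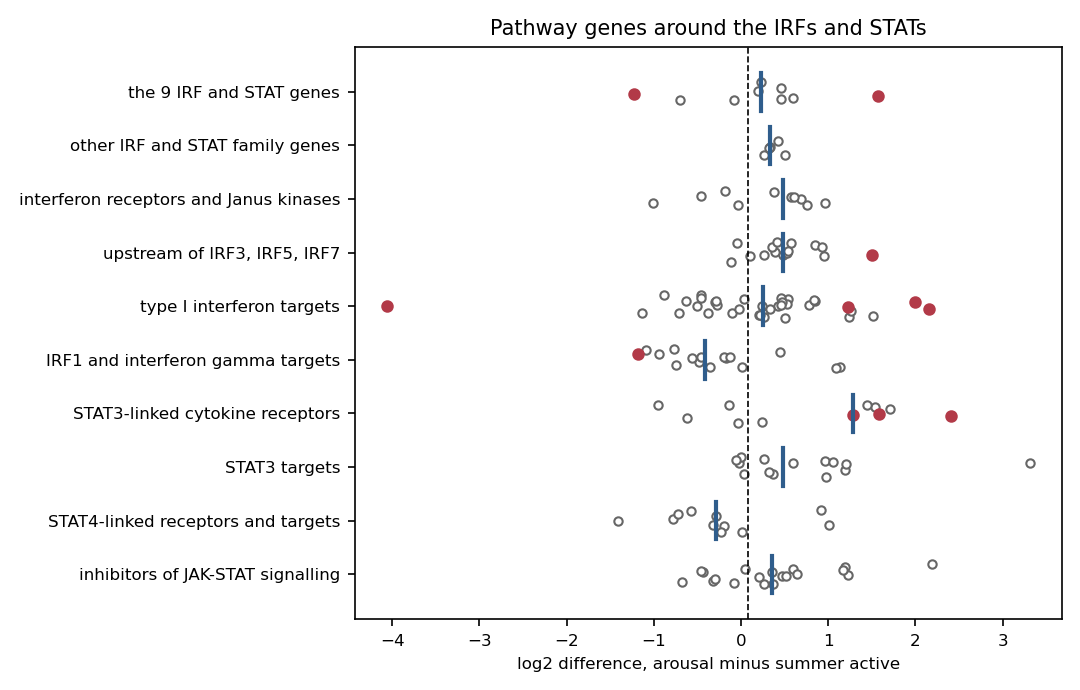
Difference in arousal against summer active on the log2(TPM + 1) scale (horizontal axis) for each tested gene of the 9 lists and for the 9 genes themselves (rows). Filled red points passed an adjusted p of 0.05, blue bars are list medians and the dashed line is the median of all genes (0.083); the receptors linked to STAT3 have the highest median, at 1.29.

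Receptors that signal through STAT3 held the largest share of calls among the lists in arousal against summer active. The lists were chosen with earlier results of these data known, so this rank carries no test. Of 11 tested receptors, 3 rose and none fell, beside 2.39% of all genes upward and 3.14% downward. Of the 11 differences 7 were above 0, with a median of 1.29 beside 0.083 for all genes. The median was 0.19 without arousal 2, the library richest in hepatocyte transcripts. IL6R, the interleukin-6 receptor, was at 21.5 and 18.8 TPM in arousal, against 6.27 and 9.27 TPM in summer active, and rose by 1.29 (adjusted p = 0.0335). OSMR, the oncostatin M receptor, was at 25.0 and 22.9 TPM in arousal, against 6.84 and 7.78 TPM in summer active, and rose by 1.59 (adjusted p = 0.0319). LIFR, the leukemia inhibitory factor receptor, was at 35.4 and 31.4 TPM in arousal, against 6.26 and 4.79 TPM in summer active, and rose by 2.40 (adjusted p = 0.0483). In all 3 genes the arousal libraries were well above the summer active ones and close to each other.

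Hepatocytes also express LIFR and IL6R, and the summed level of 9 hepatocyte markers was 1135 and 19202 TPM in arousal 1 and 2, against 2633 and 59.8 TPM in summer active 1 and 2. Within arousal, LIFR and IL6R were higher in arousal 1, the library with the lower sum. Within summer active, LIFR was higher and IL6R lower in summer active 1, the library with the higher sum. The part of hepatocytes in these values was not tested. The IL6R call was lost without any 1 of the 8 libraries (adjusted p between 0.0585 and 0.144). The OSMR and LIFR calls were kept without torpor 1 or torpor 2 and lost without any other library (adjusted p between 0.0561 and 0.135 for OSMR, and between 0.0811 and 0.175 for LIFR). IL27RA, the interleukin-27 receptor, had the opposite sign at 24.0 and 27.4 TPM in arousal, against 42.7 and 60.3 TPM in summer active (difference -0.96, adjusted p = 0.0628).

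**Figure D4:**
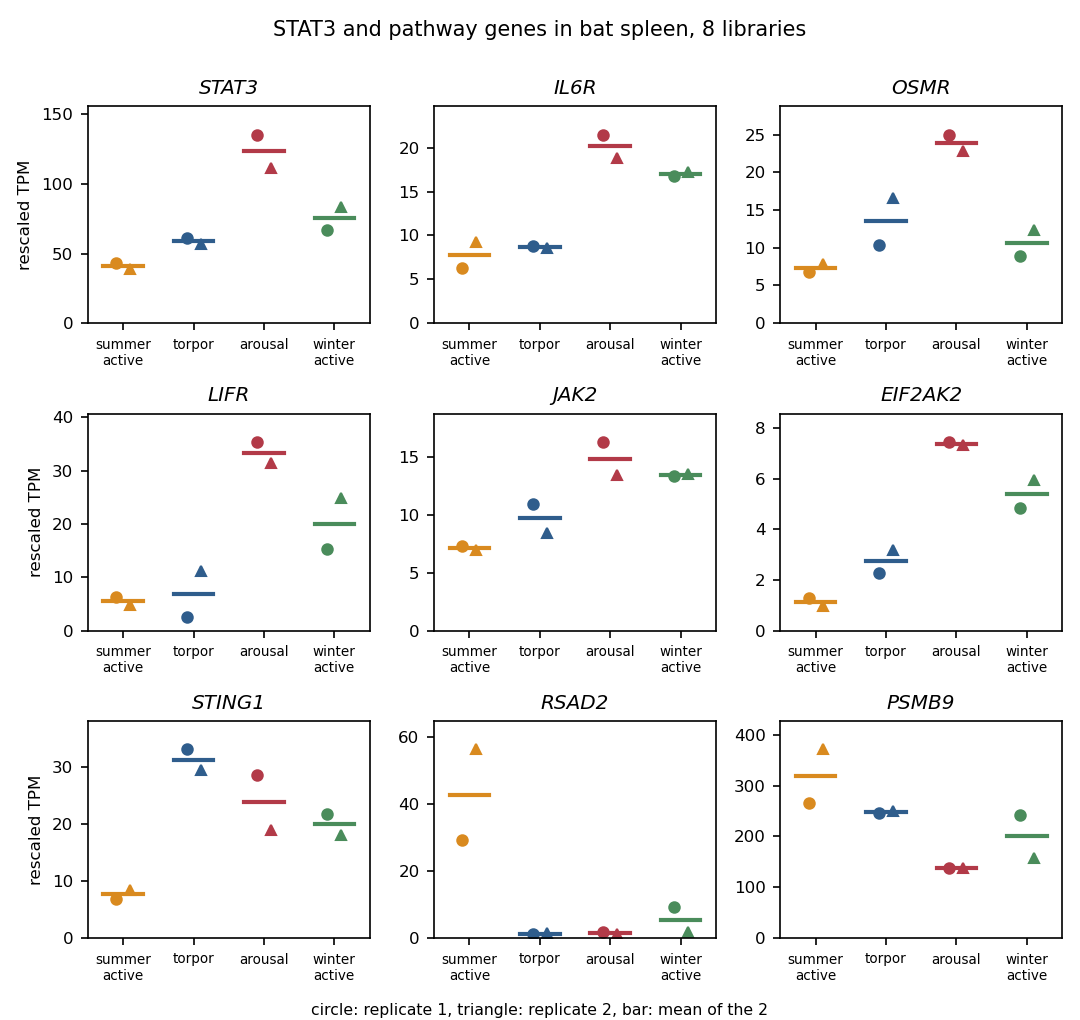
TPM (vertical axis, linear, from 0) of STAT3 and 8 listed genes in the 8 libraries, grouped by state; circles are replicate 1, triangles replicate 2 and bars the mean. IL6R, OSMR, LIFR and EIF2AK2 are highest in arousal and lowest or nearly so in summer active, whereas RSAD2 stands at 9.25 or less in the November libraries, against 29.1 and 56.2 in summer active.

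Among receptors of interferons and the Janus kinases, 0 of 10 passed in any of the 7 comparisons. The closest was JAK2, a kinase of the interferon gamma and interleukin-6 receptors, at 16.2 and 13.4 TPM in arousal, against 7.25 and 6.96 TPM in summer active (difference 0.96, adjusted p = 0.0524). IFNLR1, the specific chain of the interferon lambda receptor, was lower at 1.54 and 2.17 TPM in arousal, against 4.43 and 5.02 TPM in summer active (difference -1.01, adjusted p = 0.0876). IFNGR1, a chain of the interferon gamma receptor, was at 235 and 212 TPM in winter active, against 129 and 114 TPM in summer active (difference 0.87, adjusted p = 0.245). IFNAR2, a chain of the type I interferon receptor, was at 23.8 and 18.9 TPM in torpor, against 33.5 and 32.1 TPM in summer active (difference -0.61, adjusted p = 0.216). For each of these 4 the libraries of the states named did not overlap. The share of all genes that separate in this way was not counted, and these 4 were named for their small four-state p.

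Upstream of IRF3, IRF5 and IRF7, 1 of 15 adaptors and kinases rose in arousal, in torpor and in the November states against summer active, and it was STING1 each time. Of all genes 2.39% rose in arousal, 0.0738% in torpor and 0.657% in the November states. STING1 is the adaptor that relays the sensing of cytosolic DNA to IRF3. STING1 was at 28.7 and 19.1 TPM in arousal, against 6.92 and 8.38 TPM in summer active (difference 1.503, adjusted p = 0.0275). In torpor STING1 was at 33.2 and 29.5 TPM and in winter active at 21.9 and 18.1, so that all 6 November libraries exceeded both summer active ones (difference 1.56, adjusted p = 0.0138). The call for the November states was lost without summer active 2 (adjusted p = 0.104) and kept without each of the other 7 libraries, while the call for arousal was lost without any 1 library (adjusted p between 0.0510 and 0.116). The call for torpor was kept in 3 of the 8 fits and lost without summer active 2 (adjusted p = 0.147), torpor 1 (0.169), torpor 2 (0.176), winter active 1 (0.0796) or winter active 2 (0.0769). TICAM2, IKBKB and IRAK4, which serve Toll-like receptors, differed by 0.95, 0.85 and 0.53 in arousal against summer active without passing (adjusted p = 0.0678, 0.103 and 0.126).

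Of 37 tested targets of type I interferon, 3 rose and 1 fell in arousal against summer active, beside 2.39% and 3.14% of all genes. The median difference was 0.25, beside 0.083 for all genes, with 23 of 37 above 0. In winter active against summer active 1 of the 37 rose, beside 0.14% of all genes. There 34 of 37 were above 0 with a median of 0.89, beside 0.046 for all genes. That median was 0.57 without summer active 2 and 0.44 without winter active 1. Interferon-induced genes can have near-identical copies that split reads, so single values are uncertain.

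EIF2AK2, the kinase PKR that halts translation on meeting double-stranded RNA, followed the order of STAT3. It was at 1.29 and 0.952 TPM in summer active, 2.29 and 3.18 in torpor, 7.46 and 7.34 in arousal, and 4.86 and 5.97 in winter active. EIF2AK2 rose by 1.99 in arousal (adjusted p = 0.0158), by 1.60 in winter active (adjusted p = 0.0447) and by 1.47 in the November states (adjusted p = 0.0182) against summer active. Its arousal call was lost without summer active 2 (adjusted p = 0.0899), arousal 1 (0.0856) or arousal 2 (0.0711), and its November call without summer active 2 (0.174), torpor 2 (0.0524) or winter active 2 (0.0692). Its winter active call was kept in 1 of the 8 fits, the one without summer active 1, and was otherwise at an adjusted p of 0.0808 to 0.356.

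IFIT2, which binds viral RNA, was at 30.2 and 25.3 TPM in arousal, against 5.89 and 4.96 TPM in summer active, and rose by 2.16 (adjusted p = 0.0404, lost without any library other than torpor 1 or torpor 2, at 0.0649 to 0.156). PARP14, an ADP-ribosyltransferase, was at 38.9 and 28.7 TPM in arousal, against 16.5 and 11.3 TPM in summer active, and rose by 1.23 (adjusted p = 0.0499, lost without any 1 library, at 0.0532 to 0.195). PARP14 and RIGI, the sensor of uncapped RNA, also rose in the November states against summer active, by 1.22 and 0.99 (adjusted p = 0.0405 and 0.0427). RIGI lost that call without any 1 library (adjusted p between 0.0510 and 0.259), and PARP14 kept it without summer active 1 alone (adjusted p otherwise between 0.0552 and 0.248).

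RSAD2, or viperin, an inhibitor of viral replication, was the listed gene that fell furthest. RSAD2 was at 1.79 and 1.22 TPM in arousal, against 29.1 and 56.2 TPM in summer active, and fell by 4.06 (SE 0.61, adjusted p = 0.0225). It was at 1.12 and 1.48 TPM in torpor and at 9.25 and 1.69 TPM in winter active, and fell by 4.18 in torpor (adjusted p = 0.0428) and fell by 3.74 in the November states (adjusted p = 0.0138) against summer active. The November call was lost without summer active 2 (adjusted p = 0.166), the arousal call without summer active 2 (0.117), arousal 1 (0.0908) or arousal 2 (0.0849), and the torpor call without summer active 2 (0.236), torpor 1 (0.194), torpor 2 (0.208), arousal 1 (0.0762) or arousal 2 (0.0728). RSAD2 thus moved against the other 4 called targets of type I interferon.

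Among targets of IRF1 and interferon gamma, 1 of 16 tested genes passed, falling in arousal against summer active, where 3.14% of all genes fell. There 12 of the 16 differences were below 0, with a median of -0.41 beside 0.083 for all genes. That median was -0.19 without arousal 2, and on columns set to 1000000 it was 0.36 beside 0.76 for all genes. PSMB9, a subunit of the immunoproteasome that cuts peptides for antigen presentation, was at 138 and 138 TPM in arousal, against 266 and 371 TPM in summer active, and fell by 1.18 (adjusted p = 0.0474). The call was kept without summer active 1 and lost without each other library (adjusted p between 0.0616 and 0.163). PSMB8, a second such subunit, was at 266 and 241 TPM in arousal, against 452 and 519 TPM in summer active (difference -0.93, adjusted p = 0.0514). B2M, the invariant chain of class I molecules, was at 2372 and 1732 TPM in arousal, against 4119.5 and 4540.01 TPM in summer active (difference -1.09, adjusted p = 0.0678), and the inflammatory protease CASP1 was at 16.1 and 14.5 TPM in arousal, against 27.8 and 25.7 TPM in summer active (difference -0.77, adjusted p = 0.0755).

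The remaining lists held no gene that passed in any comparison. Of 14 tested STAT3 targets, 11 were above 0 in arousal against summer active, with a median of 0.48. BCL6, a transcriptional repressor, was at 87.0 and 53.0 TPM in arousal, against 31.3 and 26.7 TPM in summer active (difference 1.21, adjusted p = 0.0521). MYC, a growth regulator, was at 81.2 and 70.5 TPM in winter active, against 44.4 and 43.0 TPM in summer active (difference 0.78, adjusted p = 0.109). CEBPD, a transcription factor of the acute phase response, differed by -0.87 in torpor against summer active (adjusted p = 0.255), and FOS, an immediate early gene, by 1.17 (adjusted p = 0.184).

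Of 11 tested genes linked to STAT4, 8 were below 0 in arousal against summer active, with a median of -0.28. EOMES, a transcription factor of cytotoxic cells, was at 0.735 and 0.638 TPM in arousal, against 2.14 and 5.40 TPM in summer active (difference -1.41, adjusted p = 0.0854), and the related factor TBX21 differed by -0.78 (adjusted p = 0.176). IL18RAP, a chain of the interleukin-18 receptor, went the other way in that comparison by 1.01 (adjusted p = 0.171), and FASLG, a death ligand, stood highest in winter active at 2.27 and 1.57 TPM.

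Of 19 tested inhibitors of JAK-STAT signalling, 13 were above 0 in arousal against summer active, with a median of 0.35. SOCS7, a suppressor of cytokine signalling, was at 7.66 and 4.87 TPM in arousal, against 2.16 and 1.95 TPM in summer active (difference 1.22, adjusted p = 0.0647). PIAS1, an inhibitor of activated STAT proteins, differed by 0.59 (adjusted p = 0.202). The phosphatase PTPN11 differed by 2.19 (adjusted p = 0.0755) and the phosphatase PTPN2, which acts on JAK1 and JAK3, by -0.44 (adjusted p = 0.142). Of 5 tested further family members, IRF8, a factor of macrophage, dendritic cell and B cell development, came closest to a difference. IRF8 was at 118 and 119 TPM in summer active, 86.2 and 58.5 in torpor, 160 and 138 in arousal, and 172 and 135 in winter active, and differed by 1.05 in arousal against torpor (adjusted p = 0.143) and by 1.09 in winter active against torpor (adjusted p = 0.271).

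The cell makeup of the libraries moved with the states as well. The summed level of 9 B cell markers was 1209 and 699 TPM in arousal, against 2813 and 3193 TPM in summer active, and 890 to 1499 TPM in the other November libraries. IRF5, which B cells express, was likewise higher in both summer active libraries than in the rest. Within torpor, arousal and winter active IRF5 was higher in the library with the higher B cell sum. Within summer active it was higher in the library with the lower sum. Arousal 1 had a B cell sum of 1209 TPM, above the 890 and 1129 TPM of torpor. Its IRF5 value was 62.3 TPM, below the 86.6 and 88.8 TPM of torpor. Macrophage markers, 11 of 11 in the table, summed to 15428 and 11152 TPM in arousal, against 14547 and 4597 TPM in summer active, so that summer active 2 stood apart. The macrophage sums were highest in torpor, at 19577 and 18467 TPM. Of 7 plasmacytoid dendritic cell markers 4 were in the table, and these summed to 95.04 and 68.8 TPM in arousal, against 114 and 130 TPM in summer active. These 4 did not move together: 2 differences were above 0 and 2 below, and 1 marker rose while 1 fell. Neutrophil markers summed to 714 and 3577 TPM in arousal, against 2111 and 2397 TPM in summer active, with ELANE and MMP8 at 0 in summer active 2. In torpor they summed to 12392 in torpor 1 and 1425 in torpor 2, so that torpor 1 stood above all other libraries. The part of these cells in the values of STAT3, IRF5, STING1 and the other called genes was not tested.

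Cells of blood and other organs differed too. Erythroid markers, 8 of 10 in the table, summed to 1.93 and 3.85 TPM in arousal, against 5806 and 8698 TPM in summer active. HBZ was at 0 in both arousal libraries, and HBM in arousal 1. Of the hepatocyte markers none was at 0 in arousal, and TTR was at 0 in summer active 2. Adipocyte markers, 6 of 7 in the table, summed to 65.8 and 358 TPM in arousal, against 29.2 and 24.3 TPM in summer active. Markers of the exocrine pancreas, 5 of 8 in the table, summed to 36.5 and 747 TPM in arousal and 1386 and 337 TPM in torpor, against 16.5 and 13.7 TPM in summer active. Platelet and megakaryocyte markers, 6 of 8 in the table, summed to 25.5 and 21.5 TPM in arousal, against 113 and 48.5 TPM in summer active. In arousal against summer active 2 of these 6 fell. So did 8 of 8 erythroid, 3 of 9 B cell, 1 of 8 T cell and 1 of 9 NK and cytotoxic cell markers, while 1 of 6 adipocyte markers rose. Of all genes 3.14% fell and 2.39% rose there. No tested macrophage, neutrophil, hepatocyte, pancreas or spleen stroma marker passed. Between arousal 1 and arousal 2, which differ in their hepatocyte and adipocyte sums, STAT3 was the lower in the library with the higher sums (112 TPM in arousal 2 and 135 TPM in arousal 1). The part of these other tissues in the values of STAT3 and the other called genes was not tested.

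**Figure D5:**
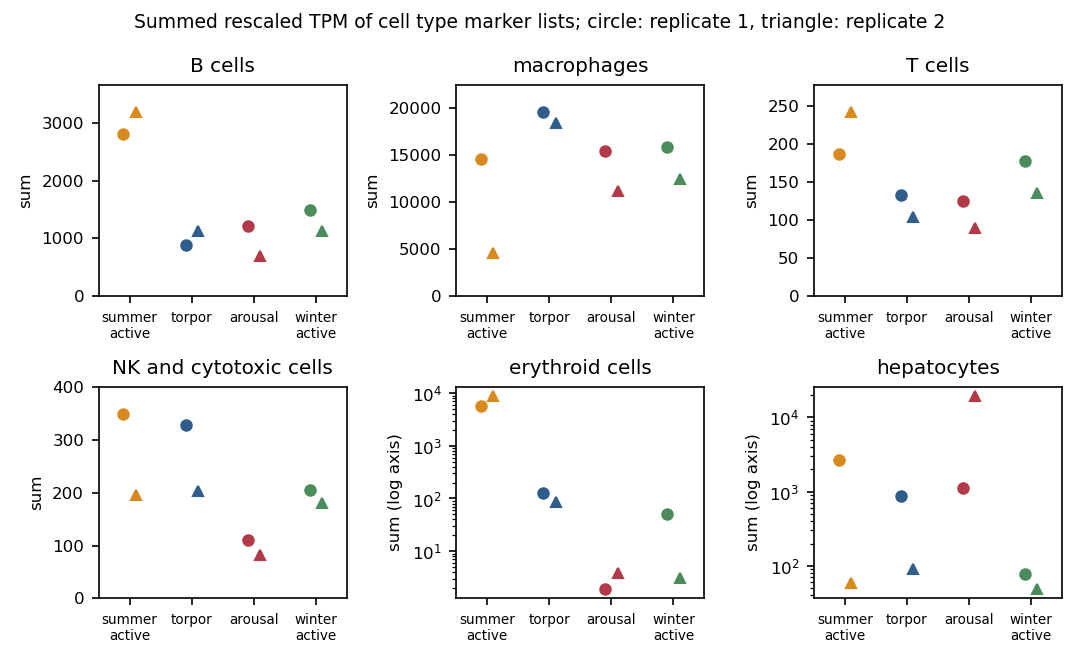
Summed TPM of 6 cell type marker lists in each library (vertical axes, linear from 0 except the log axes for erythroid cells and hepatocytes), by state; circles are replicate 1 and triangles replicate 2. B cell sums are 1499 or less in the November libraries, against 2813 and 3193 in summer active, and hepatocyte sums span 49.3 to 19202.

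Some of the 9 genes varied together. Over the 8 libraries, on the log2 scale, IRF7 and IRF9 were the most alike pair (r = 0.95), and IRF1 and IRF2 followed (r = 0.84). STAT2 ran with IRF7 (r = 0.78) and IRF9 (r = 0.72), and IRF5 ran opposite to STAT3 (r = -0.90). These coefficients describe 8 libraries that share states and scaling, and carry no test. The genes most like each of the 9 over these libraries were PIM2, IER2 and CLN8 for IRF1 (r = 0.97, 0.96 and 0.95), NRROS, CLN8 and ITGAM for IRF2 (r = 0.95, 0.94 and 0.94), and TCEANC2, STX5 and SNX17 for IRF3 (r = 0.97, 0.96 and 0.95). For IRF5 they were ARHGAP4, DTNBP1 and DDX39B (r = 0.99, 0.98 and 0.98), and for STAT3 they were NXPE3, TYW5 and MTAP (r = 0.99, 0.99 and 0.99). IRF7 was most like IFI44, CAP1 and TMEM140 (r = 0.98, 0.96 and 0.95), and IRF9 most like RASGRP2, SUMF1 and CAP1 (r = 0.99, 0.99 and 0.97). STAT2 was most like IGSF8, PARP14 and CXHXorf58 (r = 0.96 for each), and STAT4 most like DENND2D, TMCO6 and BCL2L15 (r = 0.95, 0.94 and 0.94). IFI44 and PARP14 are also listed targets of type I interferon.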

How the data were processed

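Whole spleen RNA was sequenced after Illumina library preparation, per the labels' protocols. Quantification tools named in the submitters' processing notes are kallisto 0.46.2 and sleuth 0.30.0, while the sources used here do not give the transcriptome, the build or the rescaling step. The deposited signal is 1 rescaled TPM per gene and library: columns total 745098 to 1331820, not 1000000. The plan assumed TPM, and its log-scale test suits this signal too. All 19652 gene identifiers were found in the RefSeq annotation of assembly mRhiFer1_v1.p, which served for names. Depth is unknown, so there are no counting intervals.

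The 13542 genes averaging at least 1 were fitted in limma 3.58.1 (R 4.3.3) on log2(value + 1), with eBayes and a trend, for 7 comparisons and a four-state moderated F test. All libraries shared 1 fit with 4 residual degrees of freedom, and the threshold was a Benjamini-Hochberg adjusted p of 0.05. The labels call the replicates biological. The 9 genes, the 9 pathway lists and the 12 cell type lists were chosen with earlier results of these data known. One gene of these pathway lists is not reported here and is left out of their counts. From each pathway list the text names up to 4 genes with the smallest four-state p and every gene that passed a comparison, and for each of the 9 it names the 3 genes with a real symbol and the highest Pearson r.

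The alternatives changed the pseudocount (0.1), dropped the filter, set columns to 1000000, used quantile normalization, added a replicate block, fitted only the libraries compared, or left out each library. With 1 library left out, its partner is taken to have the spread of the remaining states. On simulated data for arousal against summer active (10 runs of 13542 genes), 12.8% of planted log2 differences of 1 passed. Of those of 2, 60.5% passed, and of those of 3, 84.4%. Of the genes passing, 4.41% were false. Noise was drawn there for each gene alone, without shifts that move many genes of a library together. Over the 10 runs 624, 658 and 718 differences of these sizes were planted, and the other genes held none. In the data 28.9% of the tested genes had an unadjusted limma p under 0.05 in this comparison. The adjusted threshold depends on how many genes differ. These shares hold for that setting only.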

Additional observations from a re-analysis of the deposited data

How the results depend on the processing

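Of 50 differences followed under each alternative (33 of the 9 genes, among them each one given above, and 17 calls of listed genes), those whose sign turned were IRF3 in arousal against summer active (0.68 with columns set to 1000000, 0.043 under quantile normalization, and -0.29 to 0.13 over the fits that left out 1 library), IRF3 in the November states against summer active (-0.071 to 0.35 over such fits) and IRF9 in arousal against summer active (-0.11 to 0.56). Over all 63 differences of the 9 genes in the 7 comparisons, the sign of 23 turned under at least 1 alternative. These 23 lay between -0.51 and 0.55 as deposited, and 0 of them were called. With columns set to 1000000, the number of the 9 genes called was 6 in arousal against summer active, 5 in the November states and 3 in winter active against summer active, 1 in arousal against torpor and 3 in the four-state test, beside 6099, 4759, 779, 445 and 2977 of all genes. That setting moves the median of all genes by over 0.1, so its counts mix such a shift with changes of single genes. Without the filter the 9 genes gave 1 call in arousal against summer active and 0 in the November states, and all genes gave 203 and 200, 57 in winter active and 48 in torpor against summer active, 6 in arousal against torpor, 6 in winter active against torpor, 2 in winter active against arousal and 34 in the four-state test. Quantile normalization left 1 of the 9 in arousal against summer active. With only the libraries compared, the 9 genes gave 0 in arousal and 0 in the November states against summer active, and all genes gave 27 in arousal, 32 in winter active and 11 in torpor against summer active. Over the fits that left out 1 library, the 9 genes gave 0 to 1 calls in arousal and 0 to 1 in the November states against summer active. All genes gave 25 to 677 in arousal, 37 to 630 in the November states, 15 to 374 in winter active and 9 to 312 in torpor against summer active, 0 to 2 in arousal against torpor, 0 to 1 in winter active against arousal and 12 to 183 in the four-state test. The cause of these shifts was not tested.

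Deviations of same-numbered libraries correlated at -0.19 to 0.32 over the 6 pairs of states, above 0.1 in 4 of them and below 0 between arousal and summer active and between arousal and torpor, so the numbers were not taken to pair the libraries. IRF1, IRF2 and IRF9 were higher in replicate 1 than in replicate 2 in all 4 states, but the share of all genes with this order was not counted. A replicate block left 2 of the 9 called in arousal and 1 in the November states against summer active, and all genes gave 842 and 416, with 46 in the four-state test. Of the 20 calls of the 9 and the listed genes, 4 were lost under the block: RSAD2 in torpor (adjusted p = 0.0581), RIGI in the November states (0.0522), EIF2AK2 in winter active (0.0639) and PSMB9 in arousal (0.0547), each against summer active. With 2 libraries a state and unknown depth, differences near a log2 value of 1 can be missed.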
